A study of Homo sapiens with 59 samples.

Results

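The last 12 h of a 72 h exposure to CHIR99021 were examined in human neural stem cells, by setting the libraries of 66 h and 72 h against those of 60 h. These were 9 of the 59 libraries of the series, chosen by their labelled hours: 3 of 66 h, 3 of 72 h and 3 of 60 h, with the replicate labels A1, A2 and B1 in each. All were made from WA09 (H9), a human embryonic stem cell line, so every value comes from a single genetic background. Cells of all 3 groups were plated in E8 medium with 10 μM of the ROCK inhibitor Y27632, moved to E6 medium and given FGF8b at 200 ng/mL. They were replated with Y27632 in a medium for neuromesodermal progenitors (NMPs), where CHIR99021 began, and that medium was renewed on day 4 by an automated platform. The groups differed in how long they stayed in it: 66 h, 72 h or 60 h. All then had 4 days in neural stem cell (NSC) medium with retinoic acid (RA), renewed daily, before lysis. More CHIR99021 therefore also meant another hour of the day for the change of medium, more time since the renewal on day 4 and a longer total culture, and these cannot be told apart.

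CHIR99021 inhibits the kinase GSK3, which lets beta-catenin accumulate and switches on WNT target genes. In neuromesodermal progenitors, the source of the spinal cord and of the adjoining somites, WNT and FGF signals open the HOX clusters in order, from the genes of anterior identity to those of posterior identity. RA ends that progression and turns the cells towards neural fate. The libraries thus hold cells 4 days after the end of CHIR99021, and the comparison asks what further hours of exposure left behind.

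Expression was measured by poly(A) RNA-seq as TPM, a level per transcript length scaled to the same total in every library, so sequencing depth is unknown. Differences are of log2(TPM + 1), which makes changes of low genes look smaller, and adjusted p values are from limma's two-sided moderated test across 15305 genes with Benjamini-Hochberg adjustment, at a threshold of 0.05. Nothing in the labels makes A1, A2 and B1 separate cultures; p values therefore reflect only how far these libraries scatter, which may be technical. In bulk RNA, fewer cells of a type and less RNA per cell cannot be told apart. The 72 h A2 library stood apart: 9348 genes reached 1 TPM in it, against 11561 to 12569 in the other 8, and its 100 most abundant genes held 37.3% of all TPM, against 25.3% to 32.6%. Its median correlation with the other 8 libraries was 0.749, against 0.893 to 0.922 for each of those. Values with and without it are given for each result that rests on it.

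With all 9 libraries, more genes were called lower than higher. At 66 and 72 h together, 541 genes differed from 60 h (3.53% of those tested), of which 383 were lower (2.5%) and 158 were higher (1.03%). The median difference over all tested genes was -0.06. Without 72 h A2, 591 genes passed (3.86%), 339 lower (2.21%) and 252 higher (1.65%), the median over all genes was 0, and 413 genes passed both ways. The levels of the 6 later libraries lay wholly below those of the 3 libraries of 60 h for 487 genes (3.18%) and wholly above them for 314 (2.05%). Taken by themselves, the 66 h libraries differed from 60 h in 124 genes (0.81%) and the 72 h libraries in 1285 (8.4%), or 581 (3.8%) without 72 h A2. These comparisons share the 60 h libraries. The 72 h split was 1019 lower (6.66%) and 266 higher (1.74%), and 842 and 485 after quantile normalization.

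These counts rest on a spread shared by all 20 time points. A fit to the 9 libraries alone called 31 genes, and 12 of the 118 passing genes examined one by one passed in it. Leaving out 1 library gave 358 genes without 60 h A1, 261 without 60 h A2, 254 without 60 h B1, 853 without 72 h A1 and 859 without 72 h B1. At 66 h alone the count was 77, 63 and 59 without 60 h A1, A2 and B1, 62 without 66 h A1 and 76 without 66 h B1. At 72 h alone it was 736 and 725 without 60 h A2 and B1, and 2217 and 2268 without 72 h A1 and B1. Without 3 libraries with few detected genes (72 h A2, and 4 h B1 and 42 h B1 from other times), 1209 genes passed at 66 and 72 h together, 652 lower and 557 higher. Of the 118 genes, 50 passed in all 9 fits that left out 1 library, and for the others named here the libraries that end the call are given.

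**Figure D1:**
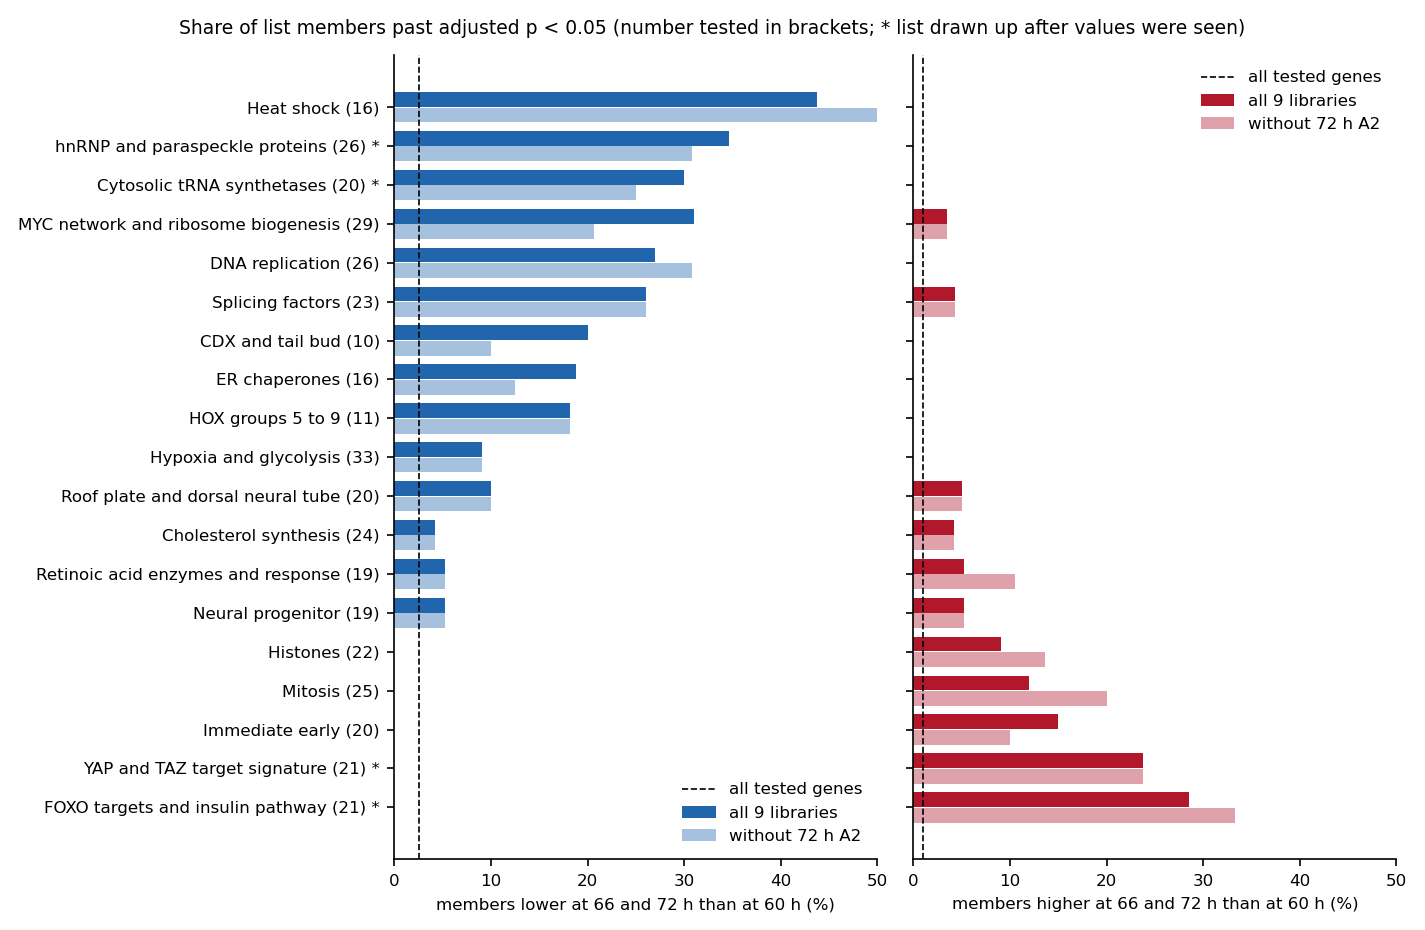
Share of each gene list that was lower (left, blue) or higher (right, red) at 66 and 72 h than at 60 h, with all 9 libraries (dark bars) and without 72 h A2 (pale bars); the dashed lines mark the share over all 15305 tested genes, and lists with at least 2 called members are shown. Heat shock genes head the left panel with 7 of 16 members lower, and the right panel is led by lists drawn up after values were seen.

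Heat shock genes were among those that fell. They encode cytosolic chaperones, which hold other proteins in a foldable state, and their shared activator HSF1 is best known for answering heat and other protein damage. Of 16 members tested, 7 were lower and 0 higher, against 2.5% and 1.03% of all genes, and the median member difference was -0.96. Without 72 h A2, 8 were lower and the median was -0.81. HSPA8, the constitutive HSP70, had 1099.7, 1255 and 1366 TPM at 66 h and 945, 893 and 928 TPM at 72 h, against 2844, 2218 and 2129.9 TPM at 60 h. Every later library lay below every 60 h library (log2 difference -1.15, SE 0.11, adjusted p = 2.89e-10). HSPH1, the HSP110 that recharges HSP70, had 80.2, 113 and 87.5 TPM at 66 h and 103, 40.2 and 61.9 TPM at 72 h, against 237, 257 and 269 TPM at 60 h. Its groups did not overlap either (log2 difference -1.71, SE 0.17, adjusted p = 2.48e-09). DNAJA1, a J-domain partner of HSP70, had 342, 355 and 376 TPM at 66 h and 289, 95.3 and 233 TPM at 72 h, against 793, 583 and 638 TPM at 60 h. Much the lowest there was 72 h A2, and the groups were also apart without it (log2 difference -1.36, SE 0.24, adjusted p = 2.83e-04; adjusted p = 7.9e-04 without 72 h A2). HSP90AA1, the inducible HSP90, had 2218, 2011 and 1904 TPM at 66 h and 1252, 712 and 1215 TPM at 72 h, against 2093, 2443 and 2554 TPM at 60 h. Its 66 h libraries overlapped those of 60 h and the lower levels were at 72 h (log2 difference -0.70, SE 0.14, adjusted p = 0.00117; at 66 h alone adjusted p = 0.747).

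The other 3 heat shock genes that fell were STIP1, which links HSP70 to HSP90 (difference -0.86), DNAJB1, another J-domain partner (-1.06), and HSPA1B, the stress-inducible HSP70 (-2.02). Their calls rested on single 60 h libraries. STIP1 had adjusted p = 0.0512 without 60 h A1, DNAJB1 0.0746 without 60 h B1, and HSPA1B 0.1 without 60 h A2 and 0.0746 without 60 h B1. HSPA1B was listed at 0 in 72 h A2, its difference was -1.15 without that library, its groups overlapped through 66 h A1, and reads it shares with the near-identical HSPA1A make its level uncertain. The mitochondrial chaperonins HSPD1 (-0.41, adjusted p = 0.073) and HSPE1 (-2.36, adjusted p = 0.112) did not pass.

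Heat shock promoters carry inverted repeats of GAA, the letters HSF1 is known to bind. Upstream windows of 250 bases ending at the start of transcription were read from RefSeq (GRCh38.p14) for all 16 members and searched on both strands. A run of 3 alternating units, GAANNTTCNNGAA, was in the windows of 5 of 16 members, among them 2 of the 7 that fell, and in 0.441% of all 35116 windows. The shorter GAANNTTC, which lies inside it, was in the windows of 10 of 16 members, among them 5 of the 7, and in 5.78% of all windows. Some members have up to 3 windows, and a match is a description of letters only. The windows of 3 genes that fell are shown because their matches differ in number and place, with the matched letters in capitals (3 units in HSPA8, the shorter form in DNAJA1 and HSPA1B). They lie at chr11:123062137-123062386 on the minus strand, chr9:33025023-33025272 on the plus strand and chr6:31827488-31827737 on the plus strand.
HSPA8: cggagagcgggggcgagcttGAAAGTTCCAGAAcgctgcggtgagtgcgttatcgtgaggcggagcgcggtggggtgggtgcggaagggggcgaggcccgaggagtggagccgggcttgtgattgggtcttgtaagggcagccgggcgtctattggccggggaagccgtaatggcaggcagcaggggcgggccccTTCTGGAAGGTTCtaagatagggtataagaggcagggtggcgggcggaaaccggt
DNAJA1: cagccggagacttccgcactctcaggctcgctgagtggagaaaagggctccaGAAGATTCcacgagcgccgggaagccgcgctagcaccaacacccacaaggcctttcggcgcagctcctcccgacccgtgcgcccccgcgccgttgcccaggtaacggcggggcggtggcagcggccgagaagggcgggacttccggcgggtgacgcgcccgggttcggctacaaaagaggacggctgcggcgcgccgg
HSPA1B: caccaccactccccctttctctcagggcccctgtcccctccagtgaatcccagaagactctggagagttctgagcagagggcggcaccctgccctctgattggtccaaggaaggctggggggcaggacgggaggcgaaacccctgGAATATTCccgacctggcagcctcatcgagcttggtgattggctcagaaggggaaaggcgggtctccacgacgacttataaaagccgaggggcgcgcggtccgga
The matches began 230 and 55 bases before the start in HSPA8, 198 bases before it in DNAJA1 and 105 bases before it in HSPA1B.

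Chaperones of the endoplasmic reticulum (ER) were examined as well. Of 16 tested, 3 were lower and 0 higher, with a median of -0.40. HSPA5 (BiP), the ER HSP70, had 535, 497 and 636 TPM at 66 h and 570.2, 275 and 466 TPM at 72 h, against 837, 757 and 815 TPM at 60 h. Its groups were apart (log2 difference -0.74, SE 0.15, adjusted p = 0.00188; adjusted p = 0.00602 without 72 h A2). HYOU1, which recharges BiP, and CALR, a lectin chaperone, overlapped between groups, with adjusted p of 0.0459 and 0.0298. HYOU1 missed the threshold without any 60 h library, 66 h A2, 66 h B1 or 72 h A2 (adjusted p 0.0602 to 0.189), and CALR without any 60 h library or 66 h A2 (0.0548 to 0.141).

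**Figure D2:**
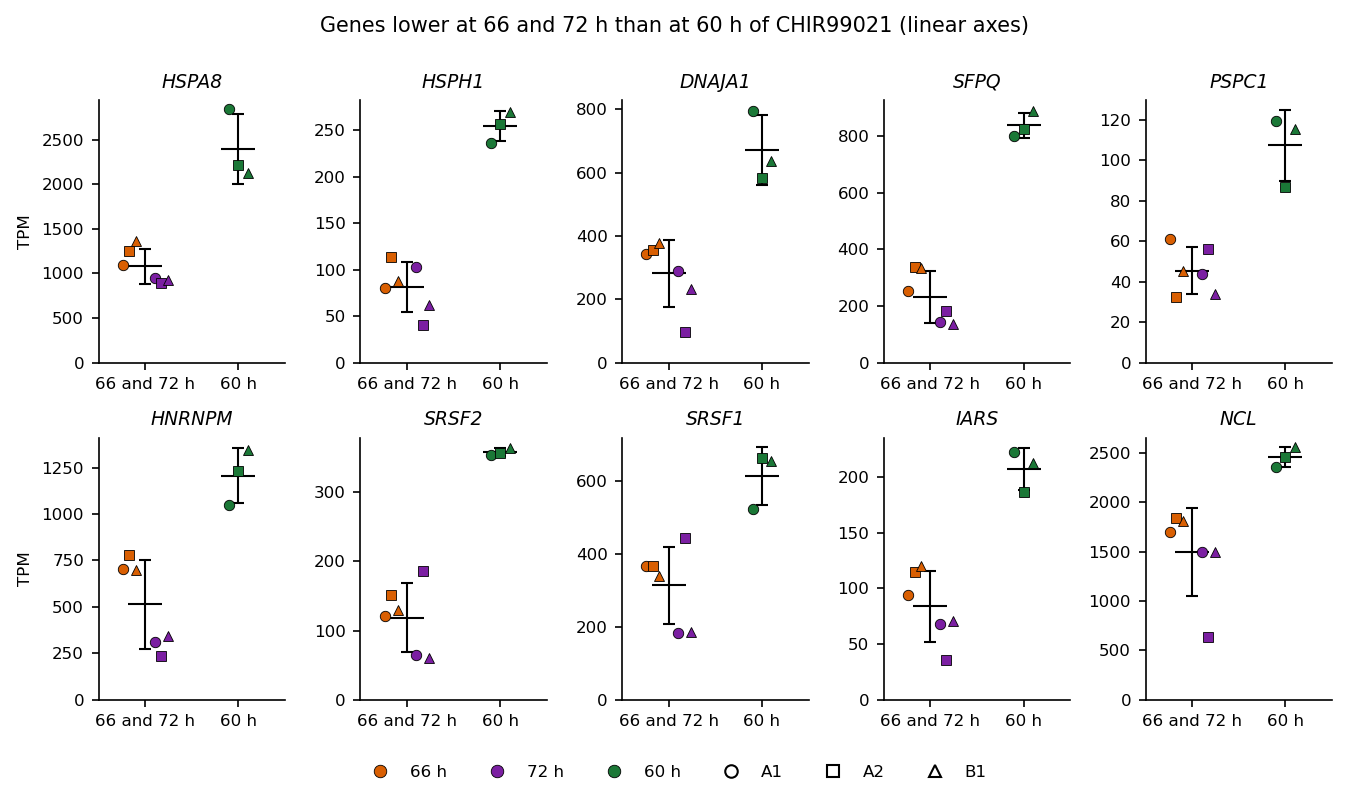
TPM in each library (points; colour marks the hours of CHIR99021, shape the replicate label) for 10 genes that were lower at 66 and 72 h (left in each panel) than at 60 h (right), with mean and SD bars (n = 6 and n = 3). The groups do not overlap in any panel, and for SFPQ and HNRNPM the 72 h libraries lie below the 66 h libraries.

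Several RNA-binding proteins of the nucleus were also lower. A list of 26 hnRNP, paraspeckle and related genes, drawn up after values were seen, held 9 that were lower and 0 that were higher, with a median of -0.33. Without 72 h A2, 8 were lower and the median was -0.18. SFPQ, a paraspeckle protein that also acts in splicing of long neuronal genes, had 251, 338 and 336 TPM at 66 h and 145, 184 and 135 TPM at 72 h, against 802, 826 and 889 TPM at 60 h. Its groups were far apart and the 72 h libraries were the lowest (log2 difference -1.95, SE 0.13, adjusted p = 2.51e-14). HNRNPM, a splicing regulator, had 704, 780.3 and 700.1 TPM at 66 h and 313, 238 and 343 TPM at 72 h, against 1047, 1229.6 and 1343 TPM at 60 h. Here too each 72 h library was below each 66 h library, with no overlap of the groups (log2 difference -1.37, SE 0.14, adjusted p = 5.24e-09). PSPC1, the partner of SFPQ in paraspeckles, differed by -1.24 (adjusted p = 2.54e-04) and EWSR1, an RNA-binding protein, by -0.62 (adjusted p = 0.00102). HNRNPD (-0.67), HNRNPC (-0.41) and HNRNPAB (-1.24) also passed. HNRNPD lost the call without 60 h B1 (adjusted p = 0.0919), HNRNPC without 60 h A1 (0.152) or 60 h B1 (0.0858), and HNRNPAB without 60 h A1, 60 h A2, 60 h B1, 66 h A1 or 72 h A2 (0.0524 to 0.161).

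Among 23 splicing factors tested, 6 were lower and 1 was higher, with a median of -0.20. HNRNPH1, a member of both lists, averaged 846 ± 215 TPM at 66 and 72 h (SD, n = 6) and 1427 ± 82.7 TPM at 60 h (SD, n = 3) (log2 difference -0.79, SE 0.14, adjusted p = 4.72e-04). SRSF2, an SR protein that binds exonic enhancers, had 121, 151 and 129 TPM at 66 h and 64.8, 187 and 60.0 TPM at 72 h, against 353, 357 and 364 TPM at 60 h. SRSF1, its relative, had 365, 366 and 339.7 TPM at 66 h and 183, 442 and 184 TPM at 72 h, against 521, 663 and 655 TPM at 60 h. In both, 72 h A2 was the highest of the later libraries and still below 60 h (SRSF2: log2 difference -1.70, SE 0.24, adjusted p = 7.7e-06; SRSF1: log2 difference -1.04, SE 0.17, adjusted p = 1.19e-04). SRSF3, which regulates its own splicing, had 106, 154 and 117 TPM at 66 h and 104, 298 and 128 TPM at 72 h, against 306, 296 and 313 TPM at 60 h. Only 72 h A2 stood inside the 60 h range and the other 5 lay below it (log2 difference -1.12, SE 0.21, adjusted p = 5.25e-04; -1.34 without 72 h A2). SRSF7 averaged 53.1 ± 22.2 TPM at 66 and 72 h (SD, n = 6) and 99.5 ± 9.65 TPM at 60 h (SD, n = 3) (log2 difference -0.97, SE 0.19, adjusted p = 0.00148), with 66 h A1 inside the 60 h range. TRA2B fell by less (-0.50), and its call was lost without any 60 h library, 66 h B1 or 72 h B1 (adjusted p 0.0556 to 0.13). SRSF4 alone among the 23 rose (0.64, adjusted p = 0.0238), a call lost without any 60 h library, 66 h A1 or 72 h A1 (0.052 to 0.124).

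Of 29 genes of the MYC network and ribosome biogenesis, 9 were lower, 1 was higher and 19 did not pass. The median was -0.79, against -0.06 over all tested genes, and 26 of 29 differences were below 0. Without 72 h A2 the counts were 6 and 1 and the median was -0.59. No share of all genes below 0 is set beside such counts of signs. Lists with few calls leaned low too, with 15 of 17 BMP and TGF-beta genes and 16 of 20 WNT feedback genes below 0. Of 76 cytosolic ribosomal proteins, 15 were below 0. NCL (nucleolin), which packs rDNA and processes pre-rRNA, had 1694, 1844 and 1807 TPM at 66 h and 1497, 635 and 1491 TPM at 72 h, against 2355, 2462 and 2556 TPM at 60 h. The groups were apart, and 72 h A2 was the lowest by a wide margin (log2 difference -0.80, SE 0.17, adjusted p = 0.00416; -0.59 without 72 h A2). NOLC1, a nucleolar chaperone, had 57.7, 62.5 and 50.3 TPM at 66 h and 83.5, 19.8 and 74.4 TPM at 72 h, against 99.7, 121 and 135 TPM at 60 h. All later libraries were below 60 h (log2 difference -1.13, SE 0.25, adjusted p = 0.00401). UTP20, part of the complex that makes the small subunit, had 17.1, 12.8 and 13.5 TPM at 66 h and 5.48, 0 and 4 TPM at 72 h, against 26.5, 30.7 and 29.6 TPM at 60 h. It was lowest at 72 h (log2 difference -2.09, SE 0.33, adjusted p = 5.62e-05; -1.68 without 72 h A2).

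MYBBP1A, a nucleolar MYB-binding protein, fell by 2.03 on the log2 scale, missing the threshold without 60 h B1 (adjusted p = 0.0584). The polymerase I subunit POLR1A fell by 1.62, missing it likewise without 60 h B1 (0.0789). NOP56 passed with -0.75, and missed without 60 h A1, 60 h A2 or 66 h B1 (adjusted p 0.0527 to 0.121). The calls of RRP9, POLR1B and GNL3 ended without 72 h A2, at adjusted p of 0.113, 0.0675 and 0.0859. RRP9 and POLR1B were also lost without any 60 h library, 66 h A2 or 66 h B1 (adjusted p 0.0677 to 0.161 and 0.0634 to 0.199), and GNL3 without any 60 h library or 66 h B1 (0.0576 to 0.155). MXD1, which competes with MYC for their shared partner MAX, was the member that rose. It had 4.19, 4.75 and 4.88 TPM at 66 h and 6.99, 10.5 and 10.3 TPM at 72 h, against 0.45, 0.12 and 0.2 TPM at 60 h. All 6 later libraries exceeded the highest level at 60 h (log2 difference 2.59, SE 0.47, adjusted p = 4.78e-04). Of 76 cytosolic ribosomal proteins, 0 passed in either direction, with a median of 0.13.

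Cytosolic aminoacyl-tRNA synthetases, which load amino acids onto tRNA, formed another list drawn up after values were seen. Of 20 tested, 6 were lower and 0 higher, 19 of 20 differences were below 0 and the median was -0.49 (-0.41 without 72 h A2). IARS, the isoleucine enzyme, had 94.5, 115 and 120.3 TPM at 66 h and 67.7, 36.1 and 71 TPM at 72 h, against 223, 187 and 213 TPM at 60 h. The groups did not overlap (log2 difference -1.39, SE 0.17, adjusted p = 4.24e-07). FARSB, a subunit of the phenylalanine enzyme, averaged 32.3 ± 14.5 TPM at 66 and 72 h (SD, n = 6) and 84.8 ± 14.2 TPM at 60 h (SD, n = 3) (log2 difference -1.47, SE 0.25, adjusted p = 1.74e-04). LARS, the leucine enzyme, averaged 152 ± 26.4 TPM at 66 and 72 h (SD, n = 6) and 238 ± 17.7 TPM at 60 h (SD, n = 3) (log2 difference -0.66, SE 0.13, adjusted p = 0.0018). YARS (-0.93), MARS (-0.92) and CARS (-1.86) passed as well. YARS was lost without 60 h A2 (adjusted p = 0.0706), MARS without any 60 h library, 66 h A2 or 66 h B1 (0.0507 to 0.157), and CARS without any 60 h library, 66 h A1, 66 h B1 or 72 h A2 (0.0511 to 0.187). SLC7A5, a transporter of large neutral amino acids, had 18.8, 24.9 and 27 TPM at 66 h and 25.7, 37.1 and 41.8 TPM at 72 h, against 71.1, 53 and 86.5 TPM at 60 h. It was lower in every later library (log2 difference -1.26, SE 0.32, adjusted p = 0.0165), and its call was lost without 60 h A1 (adjusted p = 0.0658) or 60 h B1 (0.129). It was the member of 23 amino acid response genes that passed.

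The DNA replication genes that passed were all lower, and the mitosis genes that passed were all higher. Of 26 replication genes, 7 were lower and 0 higher, 24 of 26 differences were below 0 and the median was -0.61. Without 72 h A2, 8 were lower and the median was -0.51. MCM3, part of the helicase that opens DNA, had 105, 106 and 131 TPM at 66 h and 75.4, 16.6 and 61.6 TPM at 72 h, against 144, 182 and 153 TPM at 60 h. The groups were apart, with 72 h A2 far below the rest (log2 difference -1.18, SE 0.26, adjusted p = 0.00579; -0.85 without 72 h A2). GINS1, a helicase cofactor, had 71.8, 65.9 and 61.6 TPM at 66 h and 70.8, 32.6 and 60.0 TPM at 72 h, against 116, 138 and 108 TPM at 60 h. The groups were apart again (log2 difference -1.03, SE 0.21, adjusted p = 0.00269). Others were MCM4 (-0.76), MCM7 (-0.49), CDC6, which loads the helicase (-0.76), and the polymerase subunit POLA1 (-0.64). Each of these 4 and MCM3 lost its call without 60 h A2, at adjusted p of 0.163, 0.187, 0.196 and 0.0994, and 0.0569 for MCM3. Without 60 h B1, adjusted p was 0.0746 for MCM4, 0.149 for MCM7 and 0.0779 for POLA1; without 60 h A1, it was 0.0844 for MCM7, 0.0946 for CDC6 and 0.0831 for POLA1. POLA1 also missed without 66 h A1 (0.067), and MCM7 without any 66 h library or 72 h A2 (MCM7 overall 0.0569 to 0.187).

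Of 25 mitosis genes, 3 were higher and 0 lower, no difference was below 0, and the median was 0.37. Without 72 h A2, 5 were higher. CCNA2 (cyclin A2) had 258, 189.9 and 191 TPM at 66 h and 170.1, 226 and 234 TPM at 72 h, against 116, 145 and 131 TPM at 60 h. Every later library lay above 60 h (log2 difference 0.68, SE 0.18, adjusted p = 0.0238). TOP2A, which untangles sister chromatids, had 969, 907 and 964 TPM at 66 h and 920.1, 536 and 965 TPM at 72 h, against 504, 550.1 and 582 TPM at 60 h. The other 5 were well above 60 h, and 72 h A2 lay within its range (log2 difference 0.66, SE 0.16, adjusted p = 0.0143; 0.79 without 72 h A2). DLGAP5, a spindle protein, averaged 519 ± 69.7 TPM at 66 and 72 h (SD, n = 6) and 353 ± 60.2 TPM at 60 h (SD, n = 3) (log2 difference 0.56, SE 0.15, adjusted p = 0.0307). These 3 calls depended on single libraries. CCNA2 missed without any 60 h library or 66 h A1 (adjusted p 0.0512 to 0.132), TOP2A without 60 h A1 or 60 h A2 (0.0597 to 0.0823), and DLGAP5 without 60 h A2, 60 h B1, 66 h B1 or 72 h B1 (0.0506 to 0.2). Of 22 histone genes, the linker histones H1F0 and H1FX rose. H1F0, which is known to accumulate in cells that slow their division, had 798, 737 and 785 TPM at 66 h and 981, 474 and 969 TPM at 72 h, against 338, 459 and 497 TPM at 60 h. Of the 6 later libraries, 72 h A2 overlapped 60 h and the other 5 did not (log2 difference 0.85, SE 0.16, adjusted p = 5.22e-04). H1FX differed by 0.63, and missed without 60 h A1, 60 h A2, 66 h A1 or 72 h A1 (adjusted p 0.0591 to 0.25).

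A few metabolic genes fell after a rise into 60 h. Of 33 genes of hypoxia and glycolysis, 3 were lower at 66 and 72 h and 0 were higher. PDK1, which keeps pyruvate out of mitochondria and is a target of the hypoxia factor HIF1, had 155, 135 and 140.5 TPM at 66 h and 56.1, 91.5 and 76.6 TPM at 72 h, against 161, 207 and 205 TPM at 60 h. All later libraries were below 60 h and the 72 h libraries were the lowest (log2 difference -0.88, SE 0.20, adjusted p = 0.00775). PFKFB3, an activator of glycolysis, had 49.9, 58.4 and 57.9 TPM at 66 h and 27.9, 48.8 and 27.6 TPM at 72 h, against 74.5, 148 and 92.2 TPM at 60 h. It too was below 60 h in every later library (log2 difference -1.20, SE 0.28, adjusted p = 0.00672). SLC2A1 (GLUT1), the main glucose importer, averaged 491 ± 137 TPM at 66 and 72 h (SD, n = 6) and 797 ± 243 TPM at 60 h (SD, n = 3) (log2 difference -0.69, SE 0.18, adjusted p = 0.0233). PDK1 was lost without 60 h A2 (adjusted p = 0.0641) or 60 h B1 (0.0623), PFKFB3 without 60 h A2 (0.127), and SLC2A1 without 60 h A2, 60 h B1 or 66 h B1 (0.0578 to 0.241). Before that, from 48 and 54 h to 60 h, 238 genes differed (1.56% of those tested), 147 higher at 60 h (0.96%), and 13 of these 33 were among the higher. Without 60 h A2, 143 genes differed, and without 60 h B1, 128. The difference of 60 h from 48 and 54 h, which shares the 60 h libraries, was 2.41 for PDK1 (adjusted p = 1.02e-10) and 1.30 for SLC2A1 (adjusted p = 1.57e-05).

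Cholesterol synthesis also had genes that rose into 60 h, with 8 of 24 higher there than at 48 and 54 h. At 66 and 72 h against 60 h, 1 of the 24 rose and 1 fell. SREBF2, their transcriptional activator, averaged 170.2 ± 32.6 TPM at 66 and 72 h (SD, n = 6) and 105 ± 31.9 TPM at 60 h (SD, n = 3) (log2 difference 0.71, SE 0.20, adjusted p = 0.037), a call that was lost without 60 h A1, 60 h B1, 66 h A1, 66 h B1 or 72 h B1 (adjusted p 0.0524 to 0.32). HMGCS1, which makes HMG-CoA, averaged 759 ± 168 TPM at 66 and 72 h (SD, n = 6) and 1042 ± 66.5 TPM at 60 h (SD, n = 3) (log2 difference -0.49, SE 0.12, adjusted p = 0.0165), lost without 60 h A2 or 60 h B1 (0.0512 to 0.116). Among 11 fatty acid synthesis genes, SREBF1, their activator, was lower. It had 10.0, 12.7 and 12.3 TPM at 66 h and 8.48, 0 and 12 TPM at 72 h, against 20.0, 32.6 and 42.7 TPM at 60 h. The groups were apart, and it was listed at 0 in 72 h A2 (log2 difference -1.98, SE 0.40, adjusted p = 0.00166; -1.41 without 72 h A2).

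Targets of the Hippo pathway effectors YAP and TAZ were among the genes that rose. YAP and TAZ act with TEAD factors when cells spread or are under tension, and CTGF and CYR61 are their best known targets. In a list of 21 tested targets drawn up after values were seen, 5 were higher and 0 lower, with a median of 0.70. CTGF, a secreted matrix protein, had 523, 398 and 505 TPM at 66 h and 825, 431 and 703 TPM at 72 h, against 189, 192 and 197 TPM at 60 h. Its groups were well apart (log2 difference 1.50, SE 0.16, adjusted p = 5.24e-09). CYR61, its relative, had 108, 139 and 131 TPM at 66 h and 235, 220.5 and 188 TPM at 72 h, against 85, 58.1 and 48.9 TPM at 60 h. The 72 h libraries were the highest (log2 difference 1.38, SE 0.22, adjusted p = 1.02e-04). AMOTL2, which binds and restrains YAP, had 122, 108 and 101 TPM at 66 h and 159.7, 152 and 134 TPM at 72 h, against 47.8, 69.3 and 69.9 TPM at 60 h. All later libraries exceeded all of 60 h (log2 difference 1.04, SE 0.20, adjusted p = 8.28e-04). PTPN14 (0.84) and LATS2, the kinase that inhibits YAP (0.98), also passed. PTPN14 was lost without 60 h A1 (adjusted p = 0.122). LATS2 was lost without any 60 h library, 66 h A1, 66 h A2, 72 h A1 or 72 h B1 (adjusted p 0.0539 to 0.236). ANKRD1, another well known target, did not pass (1.39, adjusted p = 0.383).

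The TEAD motif GGAATG was searched in the same way. RefSeq windows were matched for 15 of the 21 genes and 7 of these held it, among them 3 of the 4 matched genes that rose, against 11.9% of all windows. CYR61 was not matched. The list is of known targets and some of its genes have 2 windows, so these shares are no test. Here too a match is a description of letters only. The window of CTGF (CCN2 in RefSeq) held 3 matches, where 0.0826% of all windows held 3 or more, and it is shown for that reason, with the matches in capitals. It lies at chr6:131951373-131951622 on the minus strand, and the matches began 169, 104 and 95 bases before the start.
CTGF: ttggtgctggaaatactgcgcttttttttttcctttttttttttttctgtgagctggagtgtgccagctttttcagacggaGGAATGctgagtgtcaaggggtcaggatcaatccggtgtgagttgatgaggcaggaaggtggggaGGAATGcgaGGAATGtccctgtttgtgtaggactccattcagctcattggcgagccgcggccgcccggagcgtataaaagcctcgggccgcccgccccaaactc

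CTGF and CYR61 are also immediate early genes, which answer growth signals without new protein synthesis. Of 20 such genes, 3 were higher and 0 lower. The other was ZFP36, which promotes decay of AU-rich mRNAs, with 5.13, 4.63 and 5.25 TPM at 66 h and 15.4, 28.4 and 11.1 TPM at 72 h, against 0, 0.81 and 2.54 TPM at 60 h. Each later library was above each 60 h library (log2 difference 2.48, SE 0.68, adjusted p = 0.0285). Its call was lost without 60 h A1 (adjusted p = 0.186), 60 h A2 (0.11) or 72 h A2 (0.0547). FOS (1.56, adjusted p = 0.145), ATF3 (0.97, adjusted p = 0.216) and FOSL1 (-2.06, adjusted p = 0.199) did not pass. Of the 20 differences, 6 were below 0 and 13 above, with a median of 0.44.

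Some genes that FOXO factors activate, or that carry insulin signals, were also higher. FOXO proteins enter the nucleus when insulin signalling is low and are known to raise the transcription of receptor substrates there. In a list of 21 drawn up after values were seen, 6 were higher, 0 were lower and 15 did not pass, with a median of 0.65. KLHL24, a ubiquitin ligase adaptor, had 160.4, 136 and 125 TPM at 66 h and 203, 126 and 182 TPM at 72 h, against 49.9, 59.4 and 66.2 TPM at 60 h. Its groups were far apart (log2 difference 1.38, SE 0.18, adjusted p = 1.6e-06). TXNIP, which restrains glucose uptake, had 383, 386 and 329.8 TPM at 66 h and 499, 151 and 509 TPM at 72 h, against 129.6, 201 and 259 TPM at 60 h. The 72 h A2 library lay inside the 60 h range and the other 5 above it (log2 difference 0.89, SE 0.22, adjusted p = 0.0145; 1.18 without 72 h A2). IRS1, the insulin receptor substrate, averaged 46.9 ± 12.9 TPM at 66 and 72 h (SD, n = 6) and 24.7 ± 4.59 TPM at 60 h (SD, n = 3) (log2 difference 0.87, SE 0.22, adjusted p = 0.0165). IRS2, its relative, averaged 15.3 ± 4.27 TPM at 66 and 72 h (SD, n = 6) and 5.21 ± 1.71 TPM at 60 h (SD, n = 3) (log2 difference 1.40, SE 0.38, adjusted p = 0.0262). FOXO1 itself averaged 26.9 ± 5.09 TPM at 66 and 72 h (SD, n = 6) and 8.53 ± 2.42 TPM at 60 h (SD, n = 3) (log2 difference 1.57, SE 0.42, adjusted p = 0.0237). No later library of these 3 overlapped 60 h. RICTOR, a subunit of the TOR kinase complex mTORC2, passed with 0.82. TXNIP was lost without 60 h A1 (adjusted p = 0.204) and IRS1 likewise (0.138). IRS2 was lost without 60 h A2, 60 h B1 or 66 h B1 (0.0594 to 0.191), FOXO1 without any 60 h library or 66 h B1 (0.0508 to 0.164), and RICTOR without any library of 60 h or 66 h or without 72 h A1 (0.0533 to 0.216).

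NR1D2 (REV-ERB beta), a repressor in the circadian clock, was the member of 18 clock genes that passed. It had 55.1, 38.1 and 64.2 TPM at 66 h and 111, 99.9 and 121 TPM at 72 h, against 28.3, 27.7 and 26.4 TPM at 60 h. The 72 h libraries were the highest and every later library was above 60 h (log2 difference 1.42, SE 0.18, adjusted p = 7.76e-07). It was lower at 60 h than at 48 and 54 h (-1.31, adjusted p = 9.45e-06), where it averaged 71.9 and 68.2 TPM. NR1D2 levels were also higher at 24 h than at 12 h, and at 48 h than at 36 h. It had 33.4, 41.2 and 48.7 TPM at 12 h, 39.4, 32.9 and 41.5 TPM at 18 h and 88.5, 73.5 and 69.65 TPM at 24 h. At 36 h it had 29.3, 35.6 and 21.2 TPM, at 42 h 44.0, 51.9 and 27.3 TPM, and at 48 h 59.8 and 83.9 TPM. In the step from 12 h to 18 and 24 h, 0 of the 18 clock genes passed. In the step from 36 h to 42 and 48 h, 1 was higher and 0 lower. Among other clock genes, CRY2 (0.91, adjusted p = 0.274) and PER2 (0.75, adjusted p = 0.466) did not pass. The list had no lean, with 9 of the 18 differences below 0, 9 above and a median of -0.015. At 72 h alone, 5 of the 18 were higher and 1 was lower, where 1.74% and 6.66% of all tested genes were. Without 72 h A2 the counts were 2 and 0, where 3.8% of all tested genes differed in either direction.

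**Figure D3:**
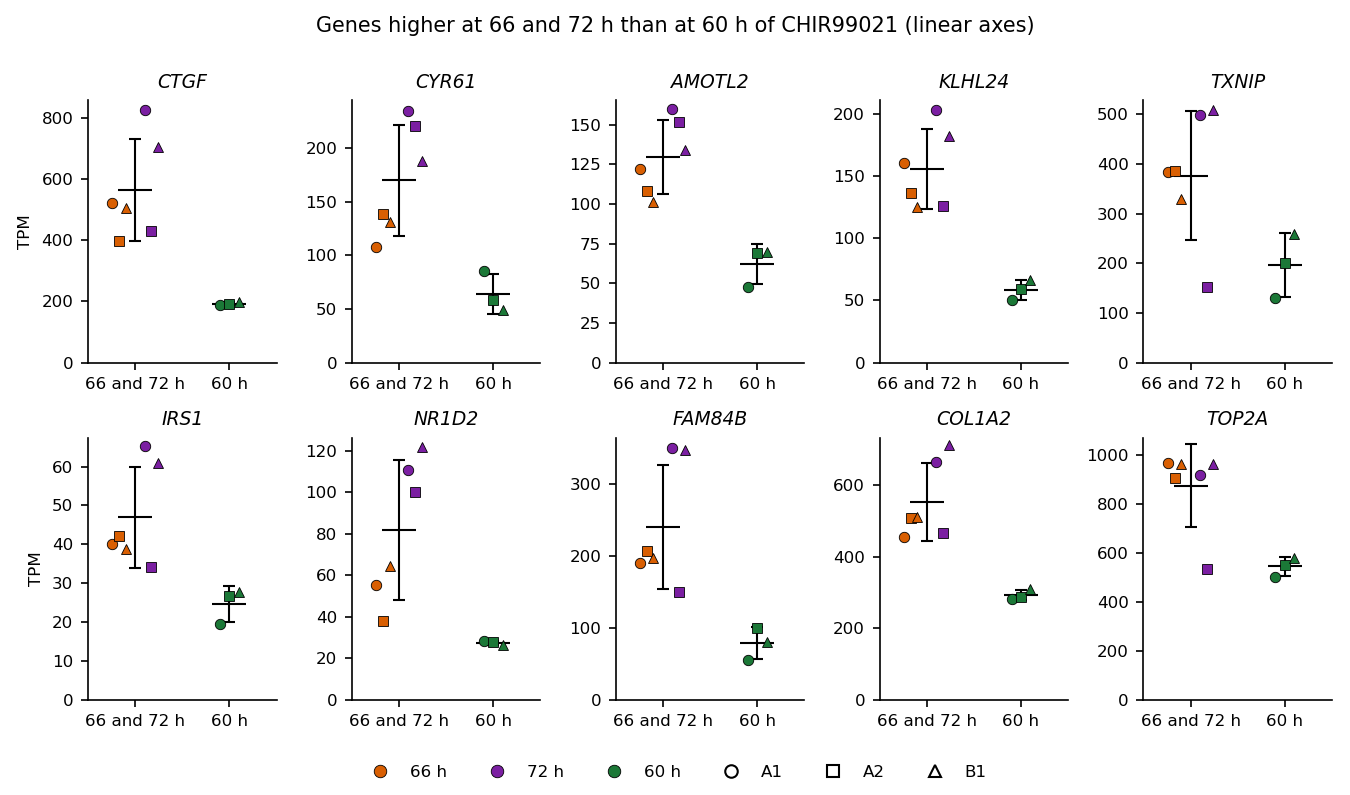
TPM in each library (points; colour marks the hours of CHIR99021, shape the replicate label) for 10 genes that were higher at 66 and 72 h (left in each panel) than at 60 h (right), with mean and SD bars (n = 6 and n = 3). CTGF, CYR61, AMOTL2, KLHL24, IRS1, NR1D2, FAM84B and COL1A2 show no overlap, whereas the 72 h A2 point (purple square) of TXNIP and TOP2A lies within the 60 h range.

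HOX genes give a cell its position along the body axis. Of 12 tested HOX genes of groups 1 to 4, 0 passed, with a median difference of 0.07. Of 11 of groups 5 to 9, 2 were lower and 0 higher. HOXC6, of brachial and thoracic identity, had 8.24, 4.81 and 11.8 TPM at 66 h and 3.13, 0 and 0 TPM at 72 h, against 12.9, 5 and 11.5 TPM at 60 h. The 66 h libraries overlapped 60 h and the 72 h libraries did not (log2 difference -1.43, SE 0.26, adjusted p = 4.73e-04). HOXA6 had 0, 2.36 and 0 TPM at 66 h and 0 TPM in all 3 libraries at 72 h, against 9.45, 6.21 and 0 TPM at 60 h, with overlap at 0 (log2 difference -1.79, SE 0.42, adjusted p = 0.00873), and was lost without 60 h A1 (adjusted p = 0.203) or 60 h A2 (0.135). Both are near the low end of measured levels, and HOXC6 was listed at 0 in all libraries of 48 h and 54 h. HOXB9, the most posterior of the abundant HOX genes, had 392, 397 and 478 TPM at 66 h and 575, 316 and 512 TPM at 72 h, against 262, 331 and 403 TPM at 60 h. The groups overlapped and the difference did not pass (0.42, adjusted p = 0.638). From 48 and 54 h to 60 h, HOXB9 had risen by 2.05 (adjusted p = 9.69e-04). HOXB8 had 228, 189 and 200.2 TPM at 66 h and 172, 249.6 and 228 TPM at 72 h, against 152, 192 and 229.8 TPM at 60 h (0.15, adjusted p = 0.89). Of the other HOX genes that reached 2 TPM, HOXA2, HOXA3, HOXA4, HOXA5, HOXA7, HOXB1, HOXB2, HOXB3, HOXB4, HOXB5, HOXB6, HOXB7, HOXC4, HOXC5, HOXD1, HOXD3 and HOXD4 had differences of -0.78 to 0.60 and did not pass.

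Genes of the tail bud, where the posterior axis grows, were at low levels. CDX2, which acts upstream of posterior HOX genes, had 3.1, 10.3 and 11 TPM at 66 h and 5.29, 20.0 and 11.3 TPM at 72 h, against 3.71, 4.45 and 6.1 TPM at 60 h, a difference that did not pass (0.79, adjusted p = 0.305). EVX1, which neighbours the HOXA cluster, was listed at 0 in all 6 later libraries, against 3.88, 0 and 4.76 TPM at 60 h, and passed (adjusted p = 1.81e-04). Its groups overlapped at 0 and its levels were near the low end. The small p value rests on the spread shared by all time points, so the call is less firm than it looks. TBX6, which turns neuromesodermal cells towards mesoderm, was also listed at 0 in all 6, against 4, 5.05 and 0 TPM at 60 h (adjusted p = 0.0455). The TBX6 call was lost without 60 h A1, 60 h A2, any 66 h library or 72 h A2 (adjusted p 0.057 to 0.335). TBXT, listed under its older symbol T, was at 0 in all 9 libraries.

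Among 19 genes of RA metabolism and response, 1 rose and 1 fell. CYP26A1, which degrades RA and is induced by it, had 269, 289 and 288 TPM at 66 h and 249, 98.8 and 147 TPM at 72 h, against 378, 458 and 382 TPM at 60 h. Every later library was below 60 h (log2 difference -0.96, SE 0.15, adjusted p = 5.62e-05). RARB, a receptor that RA induces, had 161, 143 and 142 TPM at 66 h and 170.4, 116 and 142 TPM at 72 h, against 80.6, 92.9 and 103 TPM at 60 h. Every later library was above 60 h (log2 difference 0.65, SE 0.17, adjusted p = 0.0241), though the call was lost without 60 h A1, 60 h A2 or 66 h A1 (adjusted p 0.0534 to 0.146).

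Of 20 dorsal neural tube genes, 1 was higher and 2 were lower, where 1.03% and 2.5% of all tested genes were. PAX3, a transcription factor of dorsal progenitors, had 204, 179 and 224 TPM at 66 h and 192, 98.2 and 184 TPM at 72 h, against 280.2, 314 and 363 TPM at 60 h. The groups were apart (log2 difference -0.86, SE 0.17, adjusted p = 0.00176). OLIG3, a factor of dorsal interneuron progenitors, had 18.1, 12.1 and 19.1 TPM at 66 h and 45.9, 7.5 and 6.76 TPM at 72 h, against 68.3, 52.5 and 124 TPM at 60 h. It too was lower throughout, over a wide spread (log2 difference -2.29, SE 0.58, adjusted p = 0.0165), and missed the threshold without 60 h B1 (adjusted p = 0.141). BMP7, a roof plate ligand, averaged 79.9 ± 39 TPM at 66 and 72 h (SD, n = 6) and 36.5 ± 5.48 TPM at 60 h (SD, n = 3) (log2 difference 0.99, SE 0.27, adjusted p = 0.0262). It missed without any 60 h library, 66 h A1, 72 h A1 or 72 h B1 (adjusted p 0.0517 to 0.147). PAX6, a progenitor factor of the neural tube, had 177, 159 and 149 TPM at 66 h and 146, 166 and 169 TPM at 72 h, against 85.7, 145 and 109 TPM at 60 h. The later libraries lay just above 60 h (log2 difference 0.53, SE 0.13, adjusted p = 0.00946), and the call was lost without 60 h A1 (adjusted p = 0.191) or 60 h B1 (0.0584). SOX2, which keeps neural progenitors undifferentiated, had 177, 184 and 159.6 TPM at 66 h and 224, 164 and 229 TPM at 72 h, against 76.3, 108 and 108 TPM at 60 h. Its groups were also apart, and it did not pass (0.96, adjusted p = 0.34). Of 29 neuronal genes, 0 passed at 66 and 72 h together. At 72 h alone, 3 were lower and 0 higher with all libraries, where 6.66% and 1.74% of all tested genes were. Without 72 h A2, 0 were lower and 1 higher, where 3.8% of all tested genes differed in either direction.

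Of the signalling lists, few members passed. Of 20 WNT feedback genes and beta-catenin targets, TNFRSF19 (TROY) fell. It had 43.3, 49.5 and 45.4 TPM at 66 h and 24.9, 8.95 and 23.6 TPM at 72 h, against 65.6, 64 and 80.8 TPM at 60 h, all below 60 h (log2 difference -1.26, SE 0.31, adjusted p = 0.0139), and it was lost without 60 h B1 (adjusted p = 0.0949). Of 18 FGF genes, ETV4, which FGF signalling induces, fell. It had 0, 1.92 and 0 TPM at 66 h and 2.61, 0 and 0 TPM at 72 h, against 6.59, 7.42 and 6.59 TPM at 60 h (log2 difference -2.41, SE 0.43, adjusted p = 3.43e-04). Of 17 BMP and TGF-beta genes, ID3, a direct BMP target, fell. It had 187, 235 and 169.9 TPM at 66 h and 209, 232 and 193 TPM at 72 h, against 369.9, 511 and 379 TPM at 60 h. The groups did not overlap (log2 difference -1.03, SE 0.20, adjusted p = 8.08e-04). Of 19 Notch genes, LFNG, which modifies Notch by adding sugars, fell (-0.83, adjusted p = 0.0137), lost without 60 h A2 (0.137) or 60 h B1 (0.151).

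Several markers of neural progenitors were abundant, as the label has it, and PAX3 and TBX6 were the members that fell in the lists of 16 neural crest and 10 paraxial mesoderm genes. The summed TPM of 10 progenitor markers was 2128 to 3723 at 66 and 72 h and 2573 to 3269 at 60 h, and 1 of them, PAX6, rose. The largest parts of that sum were VIM and CDH2, with means of 1192 and 1120 TPM at 66 and 72 h. SOX1 and HES5 averaged 12.1 and 27.9 TPM there. The sum of 8 neuronal markers was 129.8 to 399.5 at 66 and 72 h, lowest in 72 h A2, and 376 to 441 at 60 h. The sum of 7 mesenchymal markers was 415 to 845, highest in 72 h A2, and 441 to 775, with DCN at 0 in all 9 libraries and 0 of 7 passing. For 7 epithelial markers it was 465 to 660 and 534 to 757, with GRHL2 at 0. Sums for 4 neural crest markers (0 to 1.19 and 0 to 1.92, FOXD3 at 0), 3 glial markers (0 to 4.95 and 0 to 4.32, GFAP at 0) and 5 paraxial mesoderm markers (0 to 12.6 and 0 to 17.5, MESP1 and MSGN1 at 0) were near 0. Sums for 6 endoderm markers were 0 to 25.2 and 3.29 to 5.17, for 5 endothelial and blood markers 3.58 to 24.3, highest in 72 h A2, and 3.86 to 6.14, and for 3 pluripotency markers 9.22 to 19.8 and 11.5 to 35.3. Among 23 mesenchymal and contractile genes, the collagen COL1A2 rose (log2 difference 0.89, SE 0.14, adjusted p = 5.62e-05), with 455, 509 and 512 TPM at 66 h and 664, 466 and 712 TPM at 72 h, against 283, 288 and 309 TPM at 60 h. Its groups were apart. ACTB (beta-actin), often used as a standard, averaged 2492 ± 300.0 TPM at 66 and 72 h (SD, n = 6) and 4160.1 ± 651 TPM at 60 h (SD, n = 3) (log2 difference -0.74, SE 0.10, adjusted p = 3.25e-06). The part of these markers in the gene results was not tested.

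Lists with 0 members passing at 66 and 72 h were HOX cofactors, ventral neural tube, forebrain and midbrain, hindbrain, glia, surface ectoderm, endoderm, endothelium and blood, pluripotency, interferon, p53 targets, oxidative stress and nuclear oxidative phosphorylation (0 of 53). The hindbrain and p53 lists each had 1 higher member without 72 h A2, which in the p53 list was CCNG1 (0.51, adjusted p = 0.0306). Over all genes, 2493 had an unadjusted p under 0.05.

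The genes with the largest differences by a fixed rule included several with low levels. Of the 15 highest, FAM84B had the strongest levels, with 189.5, 207 and 197 TPM at 66 h and 349.8, 149.7 and 347 TPM at 72 h, against 55.1, 99.3 and 80.7 TPM at 60 h. Its groups were apart (log2 difference 1.57, SE 0.21, adjusted p = 1.6e-06). MBNL2, a regulator of neuronal splicing, had 43.6, 48.1 and 33.8 TPM at 66 h and 68.5, 22.9 and 66 TPM at 72 h, against 9.77, 20.7 and 11.3 TPM at 60 h. All later libraries exceeded 60 h (log2 difference 1.67, SE 0.32, adjusted p = 0.00105). PIM1, a survival kinase, averaged 39.1 ± 16.9 TPM at 66 and 72 h (SD, n = 6) and 11.2 ± 3.66 TPM at 60 h (SD, n = 3) (log2 difference 1.65, SE 0.35, adjusted p = 0.00317). RBM15, an adaptor of RNA methylation, averaged 31.8 ± 8.18 TPM at 66 and 72 h (SD, n = 6) and 10.3 ± 4.56 TPM at 60 h (SD, n = 3) (log2 difference 1.57, SE 0.38, adjusted p = 0.0099). RBM15 was lost without 60 h A1 (adjusted p = 0.0693) or 60 h A2 (0.0903). NOV, a relative of CTGF, had 0, 2.61 and 3.8 TPM at 66 h and 11.6, 14.4 and 0 TPM at 72 h, and was listed at 0 in all 60 h libraries (adjusted p = 0.00666). LEPR, the leptin receptor, had 22.6, 11 and 5.68 TPM at 66 h and 12.7, 78.4 and 19 TPM at 72 h, against 5.08, 8.84 and 0.41 TPM at 60 h. Its highest level was in 72 h A2, and it was lost without that library (adjusted p = 0.0688), 66 h A1 (0.0714) or 60 h B1 (0.35).

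The other genes of the 15 were MXD1, ZFP36 and FOXO1, given above, and LPCAT2 (2.11), PLK1S1 (1.84), C9orf78 (1.58), ADAMTSL1 (1.54), FLYWCH1 (1.53) and IKZF5 (1.52). The calls of these 6 each failed without at least 1 library. LPCAT2 failed without 60 h A2 or 60 h B1 (adjusted p 0.0623 to 0.15), and C9orf78 without 60 h B1 (0.447). PLK1S1 failed without 60 h A1, 60 h B1, 66 h A2, 66 h B1, 72 h A2 or 72 h B1 (0.0539 to 0.319). ADAMTSL1 failed without 60 h A1, 60 h A2, 66 h A1 or 72 h A1 (0.0527 to 0.383), FLYWCH1 without 60 h A1, 60 h A2, 66 h A2, 66 h B1 or 72 h B1 (0.056 to 0.221), and IKZF5 without 60 h A1, 60 h A2, 66 h A1 or 72 h A2 (0.0547 to 0.354).

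Among the 15 lowest, LGALS3 (galectin-3), a sugar-binding protein, was listed at 0 in all 6 later libraries, against 36.1, 20.6 and 33.4 TPM at 60 h (adjusted p = 5.62e-05). It averaged 5.7 TPM at 54 h and 0.6 TPM at 48 h. C8orf48 was likewise listed at 0 in all 6, against 6.42, 5.35 and 21.9 TPM at 60 h (adjusted p = 0.0156; 0.146 without 60 h B1). SLC27A4, a fatty acid transporter, had 4.3, 7.53 and 5.93 TPM at 66 h and 3.88, 0 and 3.01 TPM at 72 h, against 17.6, 39.2 and 59.6 TPM at 60 h. All later libraries were far below 60 h (log2 difference -3.06, SE 0.34, adjusted p = 4.58e-08). WNT4, a secreted WNT ligand, had 1.25, 2.05 and 3.1 TPM at 66 h and 1.84, 0 and 0 TPM at 72 h, against 16.5, 12.5 and 25 TPM at 60 h. It too was lower throughout (log2 difference -3.14, SE 0.57, adjusted p = 4.24e-04). CCDC140, which neighbours PAX3 in the genome, had 0, 5.12 and 0 TPM at 66 h and 1.94, 0 and 0 TPM at 72 h, against 6.67, 20.2 and 25.4 TPM at 60 h (log2 difference -3.33, SE 0.59, adjusted p = 2.98e-04). COX14, an assembly factor of cytochrome c oxidase, had 15.6, 0 and 0 TPM at 66 h and 0, 0 and 9.19 TPM at 72 h, against 36, 32.7 and 24.3 TPM at 60 h (log2 difference -3.75, SE 0.75, adjusted p = 0.00166).

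The 9 other genes of the lowest 15 were NDUFC2-KCTD14, CBWD3, C7orf55, FAM195A, RABL2A, FAM89B, OVCA2, SDHAF1 and STEAP1B. Each was listed at 0 in 3 to 5 of the later libraries and was above 5 TPM in every 60 h library but OVCA2, with 8.93, 4.22 and 13.3 TPM there. Of these, NDUFC2-KCTD14 is a read-through of neighbouring genes, OVCA2 overlaps another gene, and CBWD3, RABL2A and STEAP1B have near-identical copies, so their levels are uncertain. STEAP1B overlapped between groups through 66 h A2, and the other 8 did not overlap. RABL2A passed in every fit without 1 library. The calls of the others were lost without 60 h B1 for NDUFC2-KCTD14 (adjusted p = 0.0668), without 60 h A2 for FAM89B (0.0963), without any 60 h library for FAM195A (0.0592 to 0.0705), without 60 h A2 or 60 h B1 for STEAP1B (0.0608 to 0.0846), and without these or 66 h B1 for SDHAF1 (0.0508 to 0.131). CBWD3 was lost without any 60 h library or 66 h A1 (0.0713 to 0.0949), and C7orf55 (0.0687 to 0.186) and OVCA2 (0.0562 to 0.18) without any 60 h library, 66 h A1 or 66 h A2.

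The step from 60 h to 66 and 72 h was set beside the same step 24 h earlier, 42 and 48 h against 36 h, and 48 h earlier, 18 and 24 h against 12 h, with no library in common. At 42 and 48 h, 172 genes differed from 36 h (1.12% of those tested), 146 lower (0.954%) and 26 higher (0.17%), or 119 and 54 after quantile normalization and 99 and 50 after median-ratio scaling. At 18 and 24 h, 122 differed from 12 h (0.797%), 58 lower (0.379%) and 64 higher (0.418%). Without 1 library the first count was 61 (36 h B1), 80 (36 h A2), 92 (36 h A1), 121 (48 h A2), 126 (48 h A1), 147 (42 h B1), 374 (42 h A2) or 381 (42 h A1). The second was 35, 48 and 52 without 12 h A1, A2 and B1 and 81 without 18 h A2. Of the 383 genes lower at 66 and 72 h, 54 were also lower at 42 and 48 h, which is 14.1% of the 383 and 37% of the 146, and 332 had the same sign there. At 18 and 24 h, 28 of the 383 were also lower (7.31% of the 383 and 48.3% of the 58). Of the 158 higher genes, 4 were also higher at 42 and 48 h (2.53% of the 158 and 15.4% of the 26), where 112 had the same sign, and 18 at 18 and 24 h (11.4% of the 158 and 28.1% of the 64). The median difference of the 383 lower genes was -1.24 at the end of the course, -0.53 a day earlier and -0.34 a day before that. For the 158 higher genes the medians were 0.89, 0.20 and 0.36. The 541 were chosen on the end of the course, so their medians there are larger by that choice. The counts of genes with the same sign have no share of all genes beside them, and the median of all genes a day earlier was itself -0.096. Over all 15305 tested genes, differences at the end of the course correlated at 0.23 with those a day earlier (0.21 without 72 h A2). With those a day before that, the correlation was 0.24.

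SFPQ fell in all 3 steps, with differences of -1.95 at 66 and 72 h, -2.01 at 42 and 48 h and -1.69 at 18 and 24 h, with adjusted p of 2.51e-14, 3.61e-14 and 4.46e-12. HSPA8 did so with -1.15, -1.14 and -1.08. The adjusted p for HSPA8 was 3.29e-09 at 42 and 48 h and 5.26e-09 at 18 and 24 h. Of the 16 heat shock genes, 7 were lower in the step ending at 42 and 48 h and 5 in the step ending at 18 and 24 h. CYP26A1 fell in each as well (-0.96, -0.87 and -1.01, adjusted p = 8.42e-04 and 4.21e-05 in the earlier steps). Among rising genes, CYR61 rose in each (1.38, 1.08 and 1.23, adjusted p = 0.00849 and 0.00157 in the earlier steps). CTGF rose at 66 and 72 h (1.50) and at 18 and 24 h (1.49, adjusted p = 1.32e-08), and had 0.46 at 42 and 48 h (adjusted p = 0.174). That middle value includes 42 h B1, a library with few detected genes, where CTGF had 258 TPM and CYR61 had 48.8 TPM. CTGF had 489 and 468 TPM in 42 h A1 and A2 and 538 and 657 TPM at 48 h, against 304, 384 and 363 TPM at 36 h. The part of 42 h B1 in the CTGF value was not tested. OLIG3 fell at 42 and 48 h too (-2.50, adjusted p = 0.0241). Before the last step, SFPQ and HSPH1 had higher means at 54 and 60 h than at 48 h. Mean TPM of SFPQ was 167 at 48 h, 1689.7 at 54 h and 839 at 60 h. Mean TPM of HSPH1 was 81.2, 308 and 254 at these hours.

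**Figure D4:**
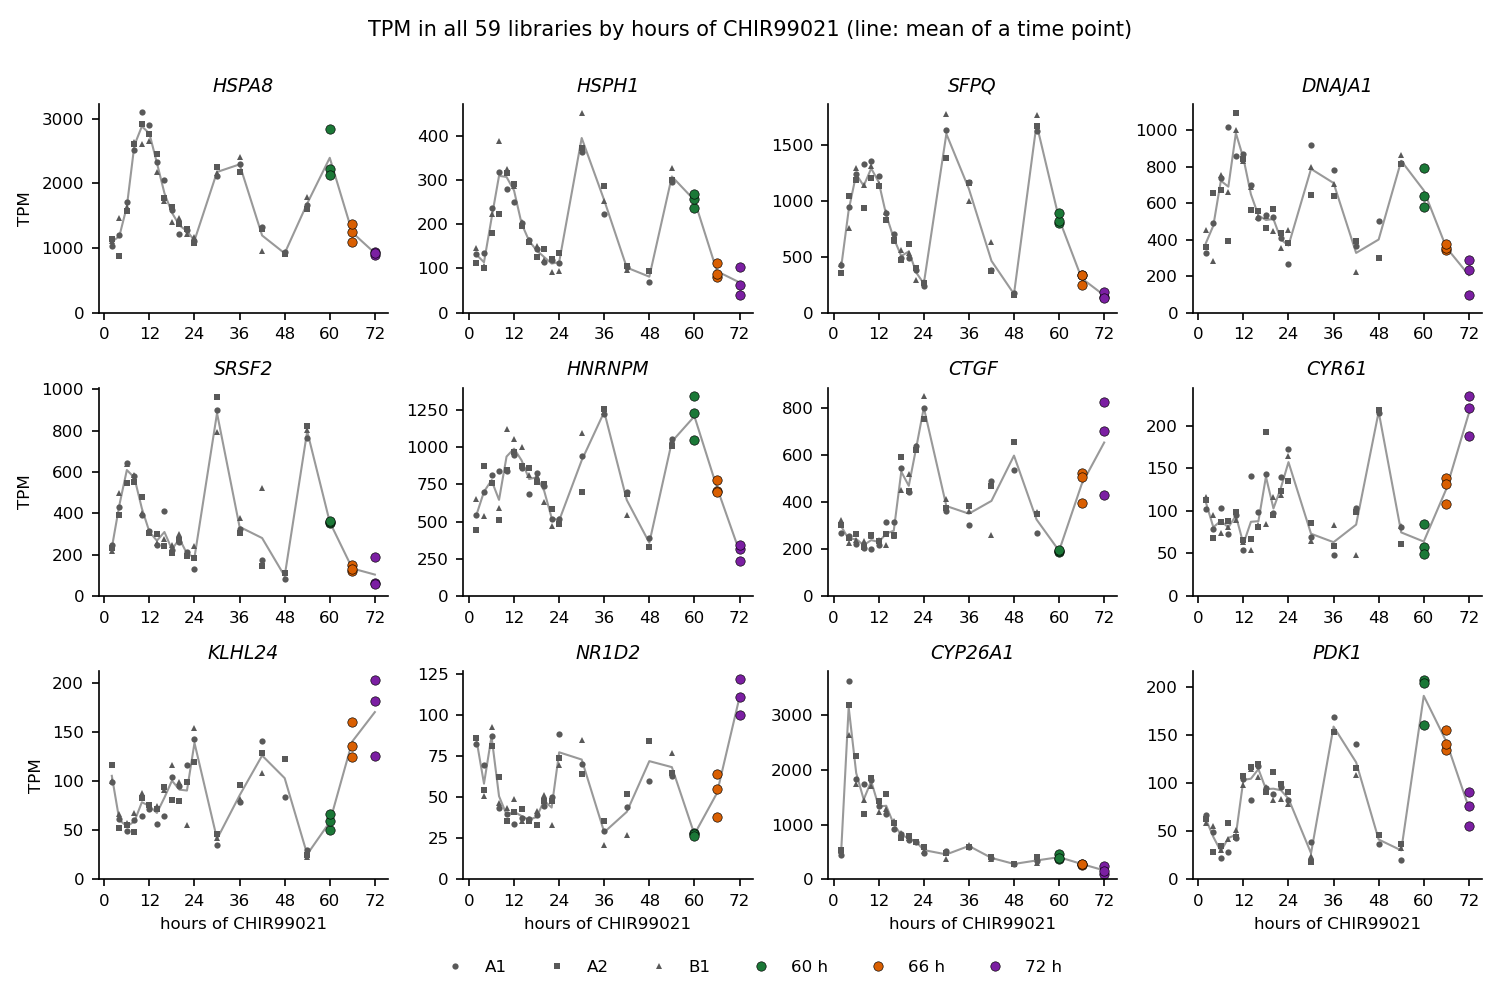
TPM of 12 genes in all 59 libraries against hours of CHIR99021, with the means of the time points joined and the 60, 66 and 72 h libraries in colour. HSPA8, HSPH1, SFPQ and HNRNPM have lower means at 24, 48 and 72 h than at 12, 36 and 60 h, CYR61 is high at 24, 48 and 72 h, and CYP26A1 is highest at 4 h.

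**Figure D5:**
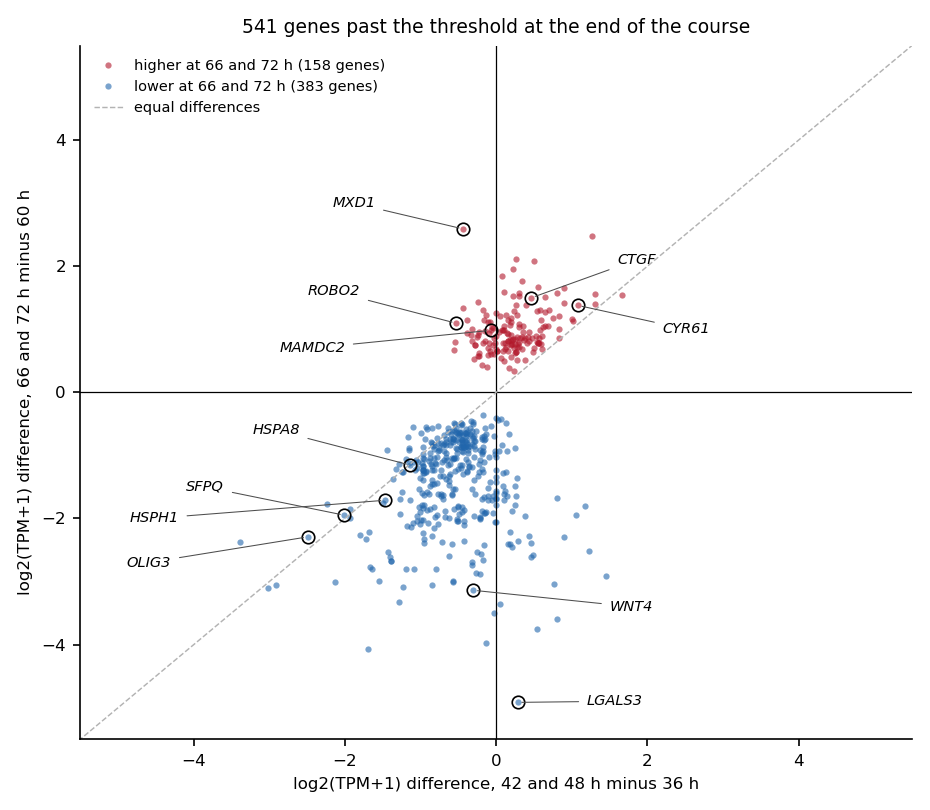
Difference in log2(TPM + 1) at 66 and 72 h minus 60 h (vertical) against that at 42 and 48 h minus 36 h (horizontal) for the 541 genes that passed at the end of the course; red points were higher and blue points lower at 66 and 72 h, and the dashed line marks equal differences. SFPQ, HSPA8, HSPH1 and OLIG3 lie near the line, and MXD1, ROBO2, MAMDC2, WNT4 and LGALS3 lie near the vertical line at 0.

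The difference between the end of the course and the step a day earlier was itself tested. It passed for 4 genes (0.0261% of those tested), with 1273 genes at an unadjusted p under 0.05. Without 72 h A2, 30 genes passed (0.196%), and over the other fits without 1 library the count was 1 (without 48 h A1) to 19 (without 48 h A2). After quantile normalization 8 passed, 5 of them lower, and after median-ratio scaling 11, 6 of them lower. ROBO2, a receptor for the guidance cue SLIT, had 32, 27.7 and 27.6 TPM at 66 h and 22.4, 19.1 and 22.5 TPM at 72 h, against 9.57, 11.4 and 12.5 TPM at 60 h. It rose at 66 and 72 h (log2 difference 1.10, SE 0.18, adjusted p = 1.19e-04), was -0.53 at 42 and 48 h, and the difference between the steps was 1.63 (adjusted p = 0.00236). MAMDC2, an extracellular matrix protein, had 72.8, 98.5 and 99.3 TPM at 66 h and 126, 103 and 109.7 TPM at 72 h, against 58.2, 51.1 and 42.7 TPM at 60 h. It rose (log2 difference 0.98, SE 0.15, adjusted p = 2.47e-05), was -0.07 a day earlier, and differed by 1.06 (adjusted p = 0.0408). MAF, a transcription factor, was 0.40 at 66 and 72 h and fell by 1.05 on the log2 scale at 42 and 48 h (difference 1.45, adjusted p = 0.00704). UNC93B1, which carries Toll-like receptors, was -1.53 and had risen by 3.05 (difference -4.58, adjusted p = 0.0158). In the 17 fits that each left out 1 library of these 6 time points, ROBO2 passed in all, with adjusted p up to 0.0194. MAF missed in 2 (without 48 h A1 or 60 h A1, adjusted p 0.0552 to 0.0753), UNC93B1 in 3 (without 36 h A2, 36 h B1 or 48 h A1, 0.0626 to 0.0753) and MAMDC2 in 7 (without 36 h A2, 36 h B1, 42 h A1, 42 h A2, 48 h A1, 60 h B1 or 66 h B1, 0.0522 to 0.16). MAMDC2 also missed under quantile normalization (0.0527), median-ratio scaling (0.0718), the replicate block (0.0557) and the fit with no trend (0.077). In the fit to the compared time points only, MAF (0.674), UNC93B1 (0.499) and MAMDC2 (0.553) all missed, and ROBO2 passed (0.0206). For HOXB9, which rose by 1.73 at 42 and 48 h (adjusted p = 0.0117), the difference between steps was -1.31 (adjusted p = 0.497). For LGALS3 it had adjusted p = 0.0675, for MXD1 0.0677 and for CTGF 0.0675.

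Between the later time points, 472 genes differed at 72 h against 66 h (3.08% of those tested), 405 lower (2.65%) and 67 higher (0.438%), and 65 without 72 h A2 (0.425%), of which 46 passed both ways. After quantile normalization 207 were lower and 93 higher. Without 66 h A1, A2 or B1 the count was 108, 223 or 252, and without 72 h A1 or B1 it was 1848 or 1917. SFPQ was -0.99 (adjusted p = 1.6e-04; 1.96e-04 without 72 h A2). NR1D2 rose further at 72 h (1.09, adjusted p = 0.00272; 0.0063 without 72 h A2). By the fixed rule, the 5 most raised were ALKBH2, TNFAIP8L2-SCNM1, NDUFB1, SIRT4 and HSD17B2, and the 5 most lowered NPPC, C2orf76, SCNM1, FAM110A and FAM173B. NPPC, a natriuretic peptide, had 20.1, 0 and 1.08 TPM at 72 h, against 83, 81.4 and 95.7 TPM at 66 h. SCNM1, a splicing factor, was listed at 0 in all 72 h libraries, against 13.3, 15 and 17.1 TPM at 66 h, whereas the read-through TNFAIP8L2-SCNM1 had 20.9, 52.6 and 13.6 TPM at 72 h, against 0, 0 and 1.48 TPM at 66 h. The estimation shares reads between these overlapping records, so their levels are uncertain. Without 72 h A2, ALKBH2 passed (adjusted p = 0.0331) and the other 9 did not, with 0.13 for NPPC and 0.202 for SCNM1.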

How the data were processed

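RNA-seq was made per the labels' protocols from 100 ng total RNA by oligo-dT selection, adaptor ligation and 18 cycles of PCR, as 51-base single reads. The submitters' processing notes list RSEM 1.2.3, Bowtie 0.12.8, CASAVA 1.8.2 and the build hg19. No source used here names the gene annotation. The authors deposited TPM per gene, already estimated by RSEM, which splits reads between overlapping or near-identical genes. TPM keeps no depth, so no counting intervals are given. The authors had removed the 48 h B1 library before deposit, per the labels.

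From the deposited TPM, log2(TPM + 1) was computed for 15305 of 19084 genes, those with at least 1 TPM in 3 or more libraries. One coefficient per time point was fitted over all 59 libraries with limma 3.58.1 in R 4.3.3 (39 residual degrees of freedom, empirical Bayes with an intensity trend, no covariate), and contrasts were tested two-sided with Benjamini-Hochberg adjustment at 0.05. Figures used Python 3.11.15, pandas 2.3.3 and matplotlib 3.10.9. On simulated data for the comparison of 66 and 72 h with 60 h over 15305 genes, 100 genes were changed at each size. The fit recovered 28% of log2 changes of 1 and 61% of log2 changes of 2, with 5 false calls. The simulated noise was independent and normal, with 1 spread per gene over all 59 libraries, so no library stood apart as 72 h A2 did. Changed genes were drawn from those with a mean log2(TPM + 1) of at least 2. The 5 false calls are thus not an error rate for the genes called here.

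The comparison and the gene lists were chosen with earlier results of these data known, and 4 lists (YAP and TAZ targets, FOXO and insulin, hnRNP and paraspeckle, tRNA synthetases) were drawn up after the values were seen. The largest movers named are the 15 highest and 15 lowest passing genes whose mean reached 5 TPM in either group; from each list up to 4 passing members by size, HOX genes from 2 TPM, 5 in each direction for 72 h against 66 h, and those past the threshold for the difference between steps. Other members were named after their values were seen. A few genes that the counts include are not reported here by name. Alternatives were other pseudocounts (0.1 and 5), no filter, a mean filter, quantile and median-ratio scaling, a replicate block, quality weights, no trend, a fit to the compared time points only, and leaving out libraries.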

Additional observations from a re-analysis of the deposited data

Results flagged for a closer look

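Of 161 values examined in the 6 libraries of 66 and 72 h, 30 had a library set apart from the other 5 by a gap above Dixon's 95% critical value, and in 25 of them it was 72 h A2. Chance flags about 1 in 20. The 72 h A2 library had the fewest genes at 1 TPM (9348), the largest share of TPM in its top 100 genes (37.3%) and the lowest median correlation with the other 8 libraries (0.749).

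The 72 h A2 library was the lowest, in TPM, for PAX3 (98.2), TOP2A (536), MCM3 (16.6), GINS1 (32.6), MCM4 (50.2), MCM7 (145), HSPA5 (275), DNAJA1 (95.3), STIP1 (67.3), HNRNPD (310.1), HNRNPAB (16.9), NCL (635), NOLC1 (19.8) and TXNIP (151). It was also the lowest, listed at 0, for SLC27A4, SREBF1, HSPA1B, MYBBP1A, HOXB5, POLR1A and POLR1B. It was the highest for SRSF3, with 298 TPM. Among the other libraries, 66 h A1 was the lowest for PLK1S1, listed at 0. The 66 h B1 library was the highest for C7orf55 (5.07 TPM) and OVCA2 (0.72 TPM), and 66 h A2 for STEAP1B (5.77 TPM) and HOXA6 (2.36 TPM), while the other 5 libraries were listed at 0 for each of these 4 genes.

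The difference between the step to 66 and 72 h and the step to 42 and 48 h passed the threshold for 4 genes, by limma's test of the difference itself. It was 1.63 for ROBO2 (1.10 and -0.53 in the 2 steps, adjusted p = 0.00236), 1.45 for MAF (0.40 and -1.05, adjusted p = 0.00704), 1.06 for MAMDC2 (0.98 and -0.07, adjusted p = 0.0408) and -4.58 for UNC93B1 (-1.53 and 3.05, adjusted p = 0.0158). With 1 library left out, ROBO2 passed in all 17 fits, MAF in 15, UNC93B1 in 14 and MAMDC2 in 10. Without 48 h A1, ROBO2 alone of the 4 passed, and the same held in the fit to the compared time points only.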

How the results depend on the processing

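For the 541 genes at 66 and 72 h against 60 h, both pseudocounts, both filters, both scalings, the replicate block, quality weights and the fit with no trend gave 489 to 782. The fit to the compared time points only gave 31, and that without the 3 libraries with few detected genes 1209. In the same order, those 2 fits gave 14 and 516 at 66 h (124), 11 and 1162 at 72 h (1285), 1 and 190 between 72 h and 66 h (472), 9 and 404 for the step a day earlier (172), and 371 and 455 for the step a day before that (122). For the difference between steps (4) they gave 6 and 47, and for 60 h against 48 and 54 h (238) they gave 195 and 756. Quality weights gave 193 genes at 66 h, 76 at 72 h against 66 h, 536 and 1306 in the earlier steps, 22 for the difference between steps and 555 into 60 h. Quantile normalization gave 300 at 72 h against 66 h, 198 at 18 and 24 h and 8 for the difference between steps, where a pseudocount of 5 gave 16, no filter 19 and median-ratio scaling 11. Without 66 h A1 and 72 h A2, a choice made after seeing the data, 496 genes passed at 66 and 72 h, 601 at 72 h, 37 at 72 h against 66 h and 15 for the difference between steps; HOXC5 then turned from -0.15 to a called 0.94. Leaving out 1 library gave ranges of 254 to 859, 59 to 118 (66 h), 581 to 2268 (72 h), 65 to 1917 (72 h against 66 h), 61 to 381 and 35 to 123 (earlier steps), 1 to 30 (difference between steps) and 128 to 230 (into 60 h). The causes were not tested.

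Same-labelled libraries of different hours had correlations of deviations of -0.029 to 0.0093, against -0.049 to 0.050 between other labels. Over all genes, same-labelled libraries thus deviated together no more than others did. Such correlations cannot tell whether A1, A2 or B1 marks a shared culture or batch. With the label as a replicate block 541 genes passed (162 higher, 379 lower), and 124, 1304 and 503 at 66 h, 72 h and 72 h against 66 h. Of the 118 passing genes examined one by one, 117 kept the call under the block, 104 with quality weights, 105 with a pseudocount of 0.1, 106 without 72 h A2 and 69 without 60 h A2. With TPM alone, low genes listed at 0 in some libraries are the least certain.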
